A study of Mus musculus with 4 samples.

Results

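The genes described here are 40 markers of the neurons and glia of the inner retina, and the data are chromatin accessibility peaks in endothelial cells sorted from mouse retina. The 40 were listed by name as cell type markers, at a time when earlier results of these data were known. Each was looked up among 21631 protein-coding genes of the autosomes and the X chromosome. Of the 40, 23 mark neurons (6 for bipolar cells, 10 for amacrine and horizontal cells, 7 for ganglion cells) and 17 mark glia (14 for Müller glia, 3 for astrocytes). A peak was assigned to a gene when it overlapped the gene body or the 10 kb on either side of it. It was set at a gene end when it lay within 1 kb of either limit of the gene. ATAC-seq, in which a transposase cuts accessible DNA, was run on 2000 FACS-isolated cells per library from C57BL/6 mice labelled P16. There were 2 control libraries and 2 libraries with the genotype Zeb1 knockdown, titled CKO. The labels do not name a Cre driver, and the genotype of the control mice is given only as control. Whether animals were pooled, and whether replicates stem from different animals, is not stated, so the spread between replicates may be technical.

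The neural retina passes signals from photoreceptors through bipolar cells to ganglion cells, whose axons form the optic nerve. Horizontal and amacrine cells modulate this path, amacrine cells mostly by releasing GABA or glycine. Müller glia span the retina and take up glutamate and potassium, and astrocytes form the bed on which retinal vessels grow. Endothelial cells line the vessels that supply these cells, and several of the listed genes, such as the glutamine synthetase gene, are also active outside the retina.

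The peak lists held 7608 peaks in control replicate 1, 13672 in control replicate 2, 13689 in knockdown replicate 1 and 19886 in knockdown replicate 2. Read depth is unknown, so closed chromatin and too few reads look alike wherever no peak is listed. All 20 genes of an endothelial marker list, among them Cdh5, Cldn5 and Tie1, had a peak in gene body and flanks in 3 libraries, and 15 of the 20 did in control replicate 1. Photoreceptor genes differed by replicate number. Of 22 listed, 8 and 10 had a peak in control and knockdown replicate 1, and 18 and 21 in control and knockdown replicate 2. In either group the library of number 2 was the higher one, and the part of this in the results below was not tested.

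In every library, a smaller share of the neuron and glia genes than of all genes had a peak. Of the 40 members, 7 (17.5%) had a peak in gene body and flanks in control replicate 1, against 35.4% of all protein-coding genes. In control replicate 2 there were 15 members (37.5%), against 53.9% of all genes. In knockdown replicate 1 there were 12 (30%), against 54.6%. In knockdown replicate 2 there were 19 (47.5%), against 61.7%. At gene ends, 4, 6, 5 and 8 members had one, in the same order of libraries, or 10%, 15%, 12.5% and 20%, against 22%, 38.5%, 39.5% and 45.2% of all genes. In bulk libraries of sorted cells, strong opening in a few other cells and weak opening in the sorted cells cannot be told apart. The median length of the members was 19488 bp, and that of all genes 17329 bp. By class it ran from 5233 bp for the ganglion cell genes to 46885 bp for the astrocyte genes. The part of gene length in these shares was not tested.

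**Figure D1:**
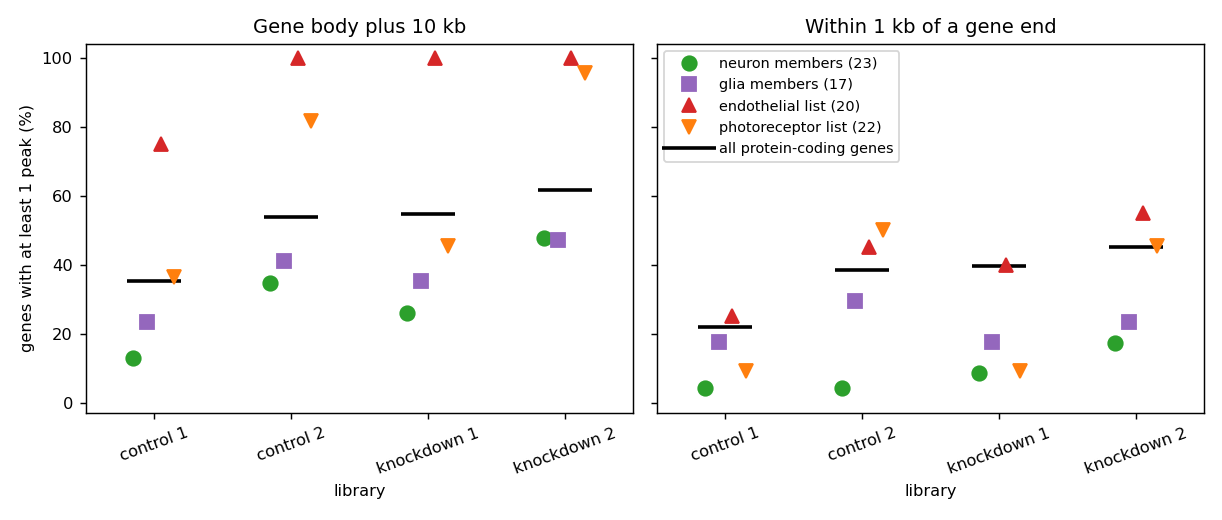
Share of genes with at least 1 listed peak (vertical axis, percent) in each library (horizontal axis), for the gene body with 10 kb on each side (left) and within 1 kb of a gene end (right). Circles and squares are the neuron and glia members, triangles the endothelial and photoreceptor lists, and black bars all 21631 protein-coding genes; both member groups lie below the black bar in every library and window.

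Over the 4 libraries, 17 members had no peak in body or flanks in any library (42.5%, against 34.2% of all genes), and 4 had a peak in all of them (10%, against 32.1%). The 4 were Rbpms, Glul, Clu and Kcnj10. At gene ends, 30 members had none (75%, against 51.5%), and 3 were held by every library (7.5%, against 20.9%), namely Rbpms, Glul and Clu. The members without any peak were Vsx1, Cabp5 and Isl1 of bipolar cells, Tfap2b, Gad1 and Onecut1 of amacrine and horizontal cells, and Pou4f1, Pou4f2, Nefl, Nefm and Thy1 of ganglion cells. The glial ones were Aqp4, Dkk3, Sox2, Lhx2, Pdgfra and Pax2. For these 17, the nearest listed peak of any library lay between 11.1 kb (Tfap2b) and 248 kb (Pou4f1) from the gene, with a median of 44.5 kb. For the 7389 genes without a peak in the genome as a whole, that median was 80.4 kb. Those genes were short, with a median length of 7897 bp, whereas the 17 members had one of 21589 bp.

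**Figure D2:**
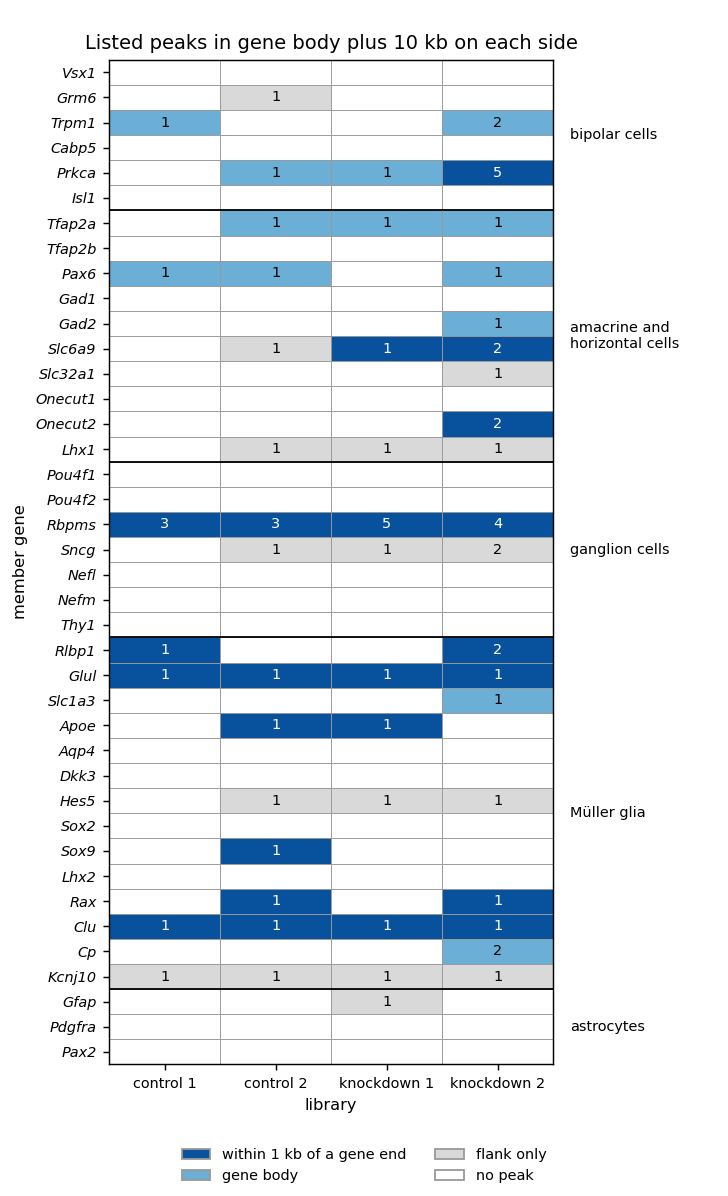
Number of listed peaks in the body and 10 kb flanks of each of the 40 member genes (rows, grouped by cell type) in each library (columns). Where a cell holds several peaks, its colour gives the first place present in the order gene end, gene body, flank. Dark blue is within 1 kb of an end, light blue in the gene body, grey in the flank and white no peak. Full rows are Rbpms, Glul, Clu and Kcnj10, and 17 rows are empty.

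Among bipolar genes, 1, 2, 1 and 2 of 6 had a peak in control replicates 1 and 2 and knockdown replicates 1 and 2. These shares of 16.7%, 33.3%, 16.7% and 33.3% were below that of all genes in each library. Vsx1, a homeobox factor, Isl1, a LIM-homeobox factor, and the calcium-binding protein gene Cabp5 had none. Prkca, which encodes protein kinase C alpha, the usual marker of rod bipolar cells and also a kinase of many other cells, is the longest member (410502 bp on chromosome 11, 107933387 to 108343888). Control replicates 1 and 2 listed 0 and 1 peaks at Prkca, and knockdown replicates 1 and 2 listed 1 and 5. The peak of control replicate 2 was not one of the knockdown peaks. A region at 108101621 to 108102001, in the gene body, was listed in each knockdown library and in no control, at rank 34.1% and 33.1% of their lists (0% being the strongest peak). The start of Prkca was overlapped by a peak in knockdown replicate 2 alone, at rank 74%. Trpm1, the cation channel that carries the light response of ON bipolar cells, had 1 peak in control replicate 1 (rank 88.8%) and 2 in knockdown replicate 2, at other positions of the locus. The metabotropic glutamate receptor gene Grm6, which acts upstream of that channel, had 1 peak, in control replicate 2. It lay 8981 bp from the start of Grm6 and at an end of the neighbouring gene Zfp879.

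The 10 amacrine and horizontal genes included 1 and 4 with a peak in control replicates 1 and 2, and 3 and 7 in knockdown replicates 1 and 2. As shares these were 10%, 40%, 30% and 70%, against 35.4%, 53.9%, 54.6% and 61.7% of all genes. In knockdown replicate 2 this class was thus above all genes. Slc6a9, the glycine transporter GlyT1 of glycinergic amacrine cells (chromosome 4, 117835258 to 117869305), was the one member with a gene-end peak in each knockdown library and in no control. Over all genes this pattern applied to 3.8%. Its region ran from 117835834 to 117836826. The peak began 997 bp downstream of the first annotated start in knockdown replicate 1 (width 572 bp, rank 65.6%) and 576 bp downstream in knockdown replicate 2 (width 983 bp, rank 72.2%). Both are in the weaker part of their lists. The peak of knockdown replicate 1 began only just inside the 1 kb limit. Counted by peak midpoints, neither knockdown library had a gene-end peak at Slc6a9. The peak of knockdown replicate 2 had a −log10 q of 2.8, so it was lost with a −log10 q of at least 3. A second region, 4772 bp upstream of that start, was held by control replicate 2 (rank 96.8%) and knockdown replicate 2 (rank 88.7%), so over body and flanks only control replicate 1 lacked a peak at Slc6a9.

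Pax6, the homeobox master regulator of eye development that amacrine, horizontal and ganglion cells keep expressing (chromosome 2, 105668896 to 105698410), held a single region at 105675247 to 105675588. It lies in the gene body 6351 bp from the first start, and was listed in control replicates 1 and 2 (ranks 71.2% and 37.8%) and knockdown replicate 2 (rank 82.3%). Knockdown replicate 1 had no peak there. Tfap2a, an AP-2 factor of amacrine cells, held 1 region in its body, 10426 bp from a start, in every library but control replicate 1, at ranks of 74.5%, 49.8% and 49.7%. Its relative Tfap2b had none. Of the genes for GABA synthesis and loading, Gad1 had no peak, and Gad2 and the vesicular transporter gene Slc32a1 had 1 peak each, in knockdown replicate 2 alone. The Slc32a1 peak lay at an end of Actr5. Onecut2, a horizontal cell factor, had a peak over a gene end (rank 74.1%) and another in its body (rank 84%), both in knockdown replicate 2, while Onecut1 had none. At Lhx1, a horizontal cell LIM-homeobox gene, the region held by 3 libraries lay at an end of Aatf, 11797 bp from the start of Lhx1.

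Of the 7 ganglion cell genes, 1, 2, 2 and 2 had a peak (14.3%, 28.6%, 28.6% and 28.6%, below the share of all genes in each library). Pou4f1 and Pou4f2, the POU factors that define ganglion cells, the neurofilament genes Nefl and Nefm and the surface glycoprotein gene Thy1 had none. Rbpms was the exception. It encodes an RNA-binding protein used as a pan-ganglion-cell marker in the retina and known in other tissues from smooth muscle. Rbpms (chromosome 8, 33782643 to 33929922) held 3 peaks in each control library, 5 in knockdown replicate 1 and 4 in knockdown replicate 2. Of its regions, 3 were shared by all 4 libraries. The one at the high-coordinate gene end spanned 33929491 to 33931045, with ranks of 39.2% and 94.3% in the controls, and of 53.5% and 51.2% with knockdown. A region in the body at 33842076 to 33842597 ranked higher, at 35.1% and 71.6% in the controls, and at 12.8% and 11.1% with knockdown. The third, at 33902460 to 33903008, had ranks between 44.4% and 89%. The other 3 regions were each in a single knockdown library. Sncg, the gamma-synuclein gene, had peaks in its flanks only. A region 10506 bp from its start was again listed in each knockdown library and no control, and another 3920 bp from its start and 3085 bp from Mmrn2, an endothelial matrix gene, in each library of number 2.

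**Figure D3:**
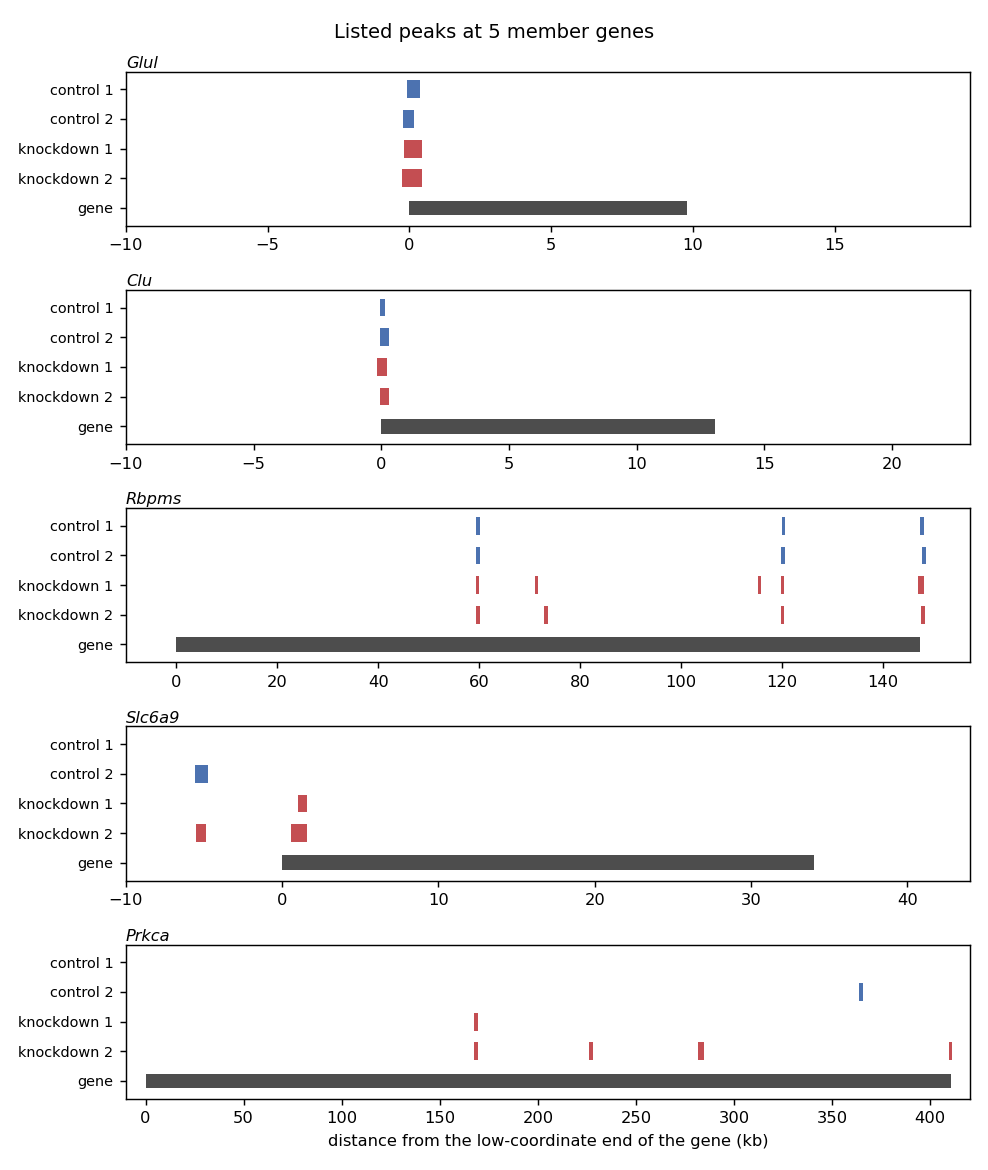
Listed peaks in each library (blue for control, red for knockdown) along 5 member genes, as the distance in kb from the low-coordinate end of the gene (dark bar); peaks narrower than the line are drawn at a fixed minimum width. Glul and Clu each show 1 region and Rbpms 3 regions in all 4 libraries, the other 3 Rbpms regions are each in 1 knockdown library, and the Slc6a9 region just inside the gene appears in the knockdown libraries only.

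Of the 14 Müller glia genes, 4, 7, 5 and 8 had a peak in the usual order of libraries. As shares these were 28.6%, 50%, 35.7% and 57.1%, against 35.4%, 53.9%, 54.6% and 61.7% of all genes. In the libraries of number 2 this class was thus close to all genes. Glul, the glutamine synthetase that detoxifies glutamate in Müller cells and is also made by other cells (chromosome 1, 153899929 to 153909723), had 1 peak over its start in each library. The region, 153899672 to 153900383, ranked at 81.4% in control replicate 1, 10.6% in control replicate 2, 31.9% in knockdown replicate 1 and 13.7% in knockdown replicate 2. The ranks of the control libraries enclosed those of the knockdown libraries. Clu, the secreted chaperone clusterin (chromosome 14, 65968483 to 65981548), had 1 peak over its low-coordinate end in each library, within 65968331 to 65968800. Its ranks were 57.2% and 47.6% in the control lists, 11.2% in knockdown replicate 1 and 6.67% in knockdown replicate 2, so it stood higher in both knockdown lists than in either control list. Ranks in lists of unequal length do not measure a change in opening.

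Kcnj10, the Kir4.1 potassium channel of Müller cells, owed its place among the members held by all 4 libraries to a single flank region. That region overlapped an end of Pigm and lay 35003 bp from the start of Kcnj10. The 666 bp region in the flank of Hes5, a Notch target, likewise lay at an end of Pank4, and was held by all libraries but control replicate 1. Apoe, the lipid carrier of Müller glia and macrophages, had a gene-end peak in control replicate 2 (rank 74.5%) and knockdown replicate 1 (rank 88.3%), 48 bp from an end of Tomm40. It lay 1607 bp from the nearest listed start of Apoe. From the high-coordinate limit of this minus-strand gene it lay 75 bp in control replicate 2 and 45 bp in knockdown replicate 1. The gene-end region of Rlbp1, the retinaldehyde-binding protein CRALBP, was held by control replicate 1 and knockdown replicate 2 and overlapped an end of Fanci. It lay 5161 bp from the listed Rlbp1 start, but at the high-coordinate limit of this minus-strand gene. The peak of control replicate 1 was 29 bp from that limit, and that of knockdown replicate 2 overlapped it. Sox9, a glial SOX factor, had a gene-end peak in control replicate 2 alone (rank 51.1%). Rax, a retinal progenitor homeobox gene, was the one member with a peak in each library of number 2 and in none of number 1, a pattern of 3.19% of all genes over body and flanks and 2.92% at gene ends. The peaks were not shared: that of control replicate 2 lay near the low-coordinate end of Rax (rank 56.3%) and that of knockdown replicate 2 beside the high-coordinate end (rank 80.9%). Slc1a3, the glutamate transporter GLAST, and Cp, the ferroxidase ceruloplasmin, had peaks in knockdown replicate 2 alone, 1 and 2 in number, away from their starts. The water channel gene Aqp4, the stem and glial factor Sox2, the eye-field factor Lhx2 and Dkk3 had none.

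Of the 3 astrocyte genes, Pax2, a factor of optic nerve astrocytes, and Pdgfra, the receptor of retinal astrocytes, had no peak in any library. Gfap, the intermediate filament of astrocytes and reactive glia, had 1 flank peak in knockdown replicate 1 (rank 98%), at an end of Eftud2 and 15893 bp from the Gfap start. No astrocyte gene had a peak at its own gene end.

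After merging across libraries, the member windows contained 41 regions. Of these, 11 lay at a member's gene end, 19 in a gene body and 11 in a flank. Within 1 kb of an end of another protein-coding gene lay 8 of the 41, 6 of them among the 11 in flanks and 2 among those at gene ends. A single library held 24 (58.5%) of the regions, 16 of them (39% of the 41) knockdown replicate 2 alone. In the genome as a whole, 41.9% of 25263 regions were held by 1 library, and 22.6% by knockdown replicate 2 alone. All 4 libraries shared 6 member regions (14.6%, against 20.3% genome-wide). The regions held by both knockdown libraries only numbered 3 (7.32%, against 10.1%), at Prkca, Slc6a9 and Sncg, and those held by both controls only numbered 0 (against 0.158%).

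In each library but knockdown replicate 1, most peaks at the members came from the weaker part of the list. The median rank of their 9, 17, 16 and 32 peaks, in the usual order of libraries, was 66.2%, 54.7%, 48.5% and 71.2%. The strongest by rank were the Clu peak of knockdown replicate 2 (6.67%), the Glul peak of control replicate 2 (10.6%) and the Kcnj10 flank peak of knockdown replicate 1 (10.7%). In knockdown replicate 2, 20 of the 32 ranked below the middle of the list.

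**Figure D4:**
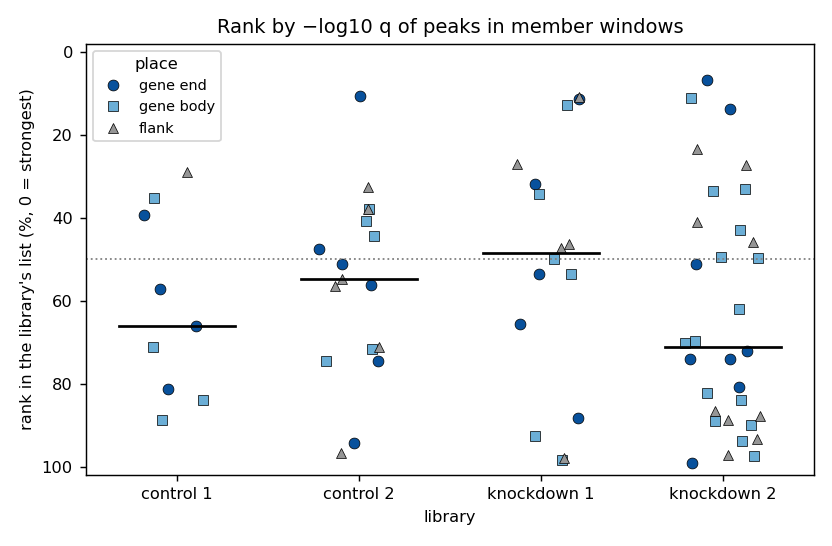
Rank by −log10 q of every peak in the member windows (vertical axis, percent of the library's own list, with 0 the strongest, drawn at the top) in each library (horizontal axis); the symbol gives the place of the peak, black lines are medians and the dotted line is the middle of the list. The medians are 66.2%, 54.7%, 48.5% and 71.2%, and ranks describe peaks within a list and are not compared as opening between libraries.

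Promoter windows, taken as 250 bases before to 50 after an annotated start in RefSeq (GRCm38.p6), were listed for 30 of the 40 members, with 41 windows in all. Of the 10 members with a gene-end peak in any library, 5 had no window listed (Rbpms, Clu, Onecut2, Sox9 and Rax), among them 2 of the 3 with a gene-end peak in all 4 libraries, so the counts of open windows leave them out. A peak overlapped 1 member window in all 4 libraries, that of Glul, or 1 of 41, against 19.2% of 21045 windows of protein-coding genes. A second window, that of Prkca, was overlapped in knockdown replicate 2 alone. The other 39 member windows had no peak in any library, whereas 54.2% of all windows had none. Windows with a peak in all 4 libraries were rich in CpG dinucleotides over the genome, with a median of 25 per window, and those without a peak had a median of 5. The 39 member windows without a peak had a median of 12, with a range from 0 to 57. With 25 CpG or more, a limit set after the data were seen, there were 10 member windows, of Hes5, Isl1, Lhx1, Lhx2 (2 windows), Onecut1, Pax2, Pou4f1, Prkca and Sox2. No peak in any library overlapped 9 of these 10 (90%). Among all windows with 25 CpG or more, 17.9% of 5263 had no peak. All but Prkca of these genes encode developmental transcription factors.

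**Figure D5:**
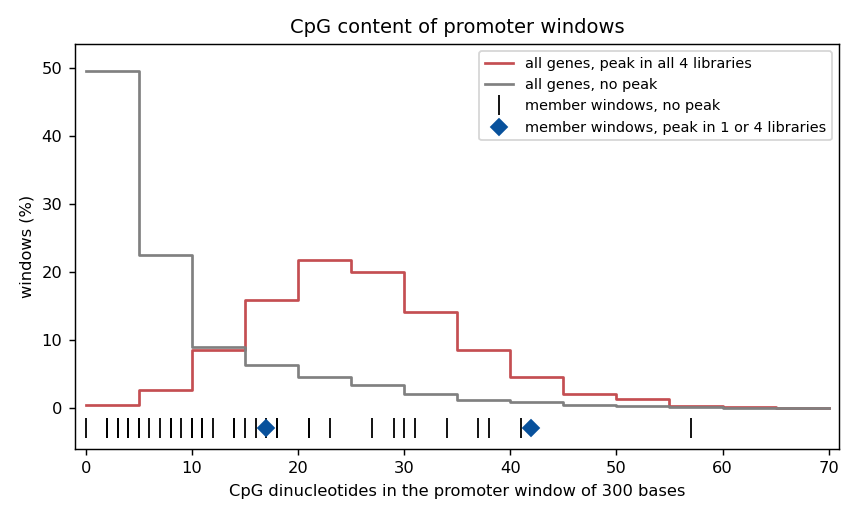
Number of CpG dinucleotides in promoter windows of 300 bases (horizontal axis) against the percentage of windows in steps of 5 CpG (vertical axis), for windows of all protein-coding genes with a peak in all 4 libraries (red line, median 25) and with no peak (grey line, median 5). Ticks below 0 are the 39 member windows without a peak, which reach up to 57 CpG, and diamonds the windows of Glul (17 CpG, 4 libraries) and Prkca (42 CpG, 1 library).

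The promoter sequences of the members whose starts were or were not covered are shown 5′ to 3′ on the strand of the gene, with matches to any of 3 short motifs in capitals. The motifs were CACCTG (the E2-box, which Zeb1 is known to bind), GGGCGG (the GC box) and CCAAT (the CCAAT box), each on either strand. Glul is the window open in all libraries (chr1:153899679-153899978, plus strand), Prkca the one with a peak in 1 library (chr11:108343839-108344138, minus strand), and Slc6a9 the first start of the gene with a knockdown-only region downstream (chr4:117835008-117835307, plus strand). The latter pair was chosen after their values were seen.
Glul: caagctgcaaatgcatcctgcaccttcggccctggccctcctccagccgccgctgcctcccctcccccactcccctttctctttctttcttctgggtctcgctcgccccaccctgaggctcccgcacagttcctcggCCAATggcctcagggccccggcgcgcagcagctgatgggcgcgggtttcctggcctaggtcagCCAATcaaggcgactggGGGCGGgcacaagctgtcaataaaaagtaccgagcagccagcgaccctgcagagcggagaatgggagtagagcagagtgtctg
Prkca: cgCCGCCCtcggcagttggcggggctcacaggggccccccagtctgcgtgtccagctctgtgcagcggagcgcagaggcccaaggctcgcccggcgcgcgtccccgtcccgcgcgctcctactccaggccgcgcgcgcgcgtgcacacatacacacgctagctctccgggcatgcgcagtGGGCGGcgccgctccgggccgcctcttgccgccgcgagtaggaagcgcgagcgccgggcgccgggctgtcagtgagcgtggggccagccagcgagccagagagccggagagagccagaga
Slc6a9: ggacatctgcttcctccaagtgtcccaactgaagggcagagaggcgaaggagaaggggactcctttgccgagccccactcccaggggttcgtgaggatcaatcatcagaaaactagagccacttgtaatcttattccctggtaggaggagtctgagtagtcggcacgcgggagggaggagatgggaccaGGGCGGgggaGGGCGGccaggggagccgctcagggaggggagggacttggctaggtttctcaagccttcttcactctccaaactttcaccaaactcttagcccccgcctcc

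Windows without a peak in any library are shown for the first 3 such members in alphabetical order among bipolar genes. They are Cabp5 (chr7:13397905-13398204, plus strand, 0 CpG), Grm6 (chr11:50850435-50850734, plus strand, 4 CpG) and Isl1 (chr13:116309639-116309938, minus strand, 37 CpG). Isl1 differs from the others in its CpG content, which exceeds that of the open Glul window (17 CpG).
Cabp5: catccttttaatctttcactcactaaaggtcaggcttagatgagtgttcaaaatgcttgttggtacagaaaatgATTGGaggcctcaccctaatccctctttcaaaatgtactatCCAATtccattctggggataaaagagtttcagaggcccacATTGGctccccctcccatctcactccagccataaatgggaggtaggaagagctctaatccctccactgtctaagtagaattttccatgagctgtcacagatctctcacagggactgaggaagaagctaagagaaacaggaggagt
Grm6: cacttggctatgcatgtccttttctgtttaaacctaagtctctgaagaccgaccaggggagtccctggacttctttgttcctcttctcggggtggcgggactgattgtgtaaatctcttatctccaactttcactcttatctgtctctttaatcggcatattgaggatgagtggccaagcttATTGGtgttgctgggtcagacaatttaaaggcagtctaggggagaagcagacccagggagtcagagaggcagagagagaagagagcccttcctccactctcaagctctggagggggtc
Isl1: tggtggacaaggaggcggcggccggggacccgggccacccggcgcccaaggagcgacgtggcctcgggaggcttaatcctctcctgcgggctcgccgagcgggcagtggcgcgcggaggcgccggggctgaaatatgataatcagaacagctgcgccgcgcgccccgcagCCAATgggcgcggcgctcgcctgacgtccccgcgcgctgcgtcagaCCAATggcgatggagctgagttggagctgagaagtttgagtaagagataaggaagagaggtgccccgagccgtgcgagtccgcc

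None of these 6 windows held the E2-box. It was found in 6 of the 41 member windows (14.6%), of Apoe, Gad1, Hes5, Pax2, Pou4f1 and Slc32a1, and in 19.9% of all windows. No peak overlapped any of the 6, but 39 of the 41 member windows had none in any case. Over all genes, 2546 of the 4188 windows with the E2-box had no peak in any library, and 54.2% of all windows had none. The GC box was in 16 member windows (39%, against 46.7%) and the CCAAT box in 15 (36.6%, against 38.5%).

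Between the groups, the number of members with a peak in body and flanks was 11 ± 5.66 (SD, n = 2) for the controls, against 15.5 ± 4.95 (SD, n = 2) with knockdown, a difference of 4.5 that is smaller than the spread within either group. The groups overlapped, since control replicate 2 (15 members) was above knockdown replicate 1 (12 members). That spread goes with the replicate number, number 2 being higher in each group. Within number 1 the knockdown library had 5 more members than the control, and within number 2 it had 4 more. Whether libraries of equal number form a pair is not stated. With 2 libraries against 2, a two-sided exact permutation test cannot give p below 0.333, and no test was made. The difference was −0.5 when each list was limited to its 7608 strongest peaks, from 7 and 9 members in the controls against 9 and 6 with knockdown. No member had peaks over body and flanks in each knockdown library and in no control (0 of 40, against 3.96% of all genes), nor the reverse (0 of 40, against 0.19%). At gene ends these patterns had 1 member, Slc6a9, and 0 members (against 0.0324%). Over body and flanks, the patterns changed when a library was left out. A group that lost a library was then represented by its other library alone. Without control replicate 2, 6 members were knockdown-only (15%, against 20.2% of all genes), namely Prkca, Tfap2a, Slc6a9, Lhx1, Sncg and Hes5. Without knockdown replicate 1 there were 5 others (12.5%, against 8.48%), Gad2, Slc32a1, Onecut2, Slc1a3 and Cp. Without knockdown replicate 2, Gfap was knockdown-only (2.5%, against 4.84%) and Pax6 control-only (2.5%, against 0.707%). Without control replicate 1, Grm6 and Sox9 were control-only (5%, against 1.35%). Pax6 was also control-only with lists of equal length (2.5%, against 1.06%).

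Control replicate 2 and knockdown replicate 1, whose lists were nearly equal in length, shared 11 members (27.5%, against 48.9% of all genes). Only the control library held another 4, Grm6, Pax6, Rax and Sox9 (10%, against 5.05% of all genes), and only the knockdown library held 1, Gfap (2.5%, against 5.72%). For photoreceptor genes, which were not tested as a source of these peaks, the same libraries held 18 and 10 of 22.

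A further list held 52 genes of the same cell types. In the same order of libraries, 11, 21, 19 and 26 of them had a peak over body and flanks (21.2%, 40.4%, 36.5% and 50%). All genes had 35.4%, 53.9%, 54.6% and 61.7%. At a gene end 3, 12, 10 and 15 had one (5.77%, 23.1%, 19.2% and 28.8%, against 22%, 38.5%, 39.5% and 45.2% of all genes). The shares were not alike across the classes. Of the 12 further Müller glia genes, 41.7%, 66.7%, 66.7% and 75% had a peak over body and flanks, above the share of all genes in each library, and 16.7%, 58.3%, 50% and 58.3% had one at a gene end, above it in all but control replicate 1. Of the 12 further amacrine and horizontal genes, 16.7%, 8.33%, 8.33% and 33.3% had a peak over body and flanks. The values were 33.3%, 50%, 41.7% and 41.7% for 12 bipolar genes, 0%, 20%, 20% and 40% for 10 ganglion cell genes, and 0%, 66.7%, 50% and 66.7% for 6 astrocyte genes. Held at a gene end by all 4 libraries were 3 of the 52 (5.77%, against 20.9% of all genes). They were Vim, the intermediate filament vimentin that endothelial cells also make, Dbi, a binding protein of acyl-CoA, and Nyx, the bipolar protein nyctalopin. Both libraries of number 2 and neither of number 1 held 4 of the 52 over body and flanks (against 3.19% of all genes). At a gene end they held 3 of the 52 (against 2.92%). Of the 52, 2 were knockdown-only at a gene end, a pattern of 3.8% of all genes. At gene ends, 0 of the 52 were control-only, against 0.0324% of all genes. Among 20 mural cell and leukocyte markers, 4, 6, 5 and 7 had a peak in body and flanks (20%, 30%, 25% and 35%). This list too was below all genes in each library, so a low share was not particular to the neuron and glia genes. Per Mb of window, the members held 3.81 and 7.2 peaks in the controls, and 6.77 and 13.5 with knockdown. The windows of all protein-coding genes held 4.84 and 9.33 and then 9.23 and 12.9, and those of the endothelial list 14.6 and 30.5 and then 33.3 and 38.9. In knockdown replicate 2 the density at the members was therefore not below that of all genes. There, 22 of the 32 peaks were at the neuron genes, whose windows held 14.1 per Mb, and 12.4 per Mb was the value for the glial genes.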

How the data were processed

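ATAC-seq peaks were taken from the authors' lists, made separately for each of the 4 libraries on mm10. MACS2 2.1.1, bedtools 2.26.0, Bowtie2 2.3.2, Trimmomatic 0.36, SAMtools 1.3 and Picard 2.9.2 are named, without settings, per the submitters' processing notes. The transposase offset and the peak filter are not described there. Per peak, the deposited files give a fold enrichment (a ratio over the library's own background), −log10 values of p and of q, and a score. The score is 10 times the −log10 q, truncated and limited to 1000, except at 4 peaks of knockdown replicate 2. All −log10 q values exceed 1. The fold enrichment and score were not used to compare libraries.

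Gene limits, starts and promoter sequences came from RefSeq (GRCm38.p6, the chromosomes of mm10); 30 of 40 members had promoter entries, and strand was used only for those. A peak counted with 1 bp of overlap, and coordinates are 1-based. Regions are peaks of the 4 lists merged where they overlap or touch. A rank is a peak's position by −log10 q within its own list. Overlap functions were tested on simulated peaks. Python 3.11.15, pandas 2.3.3 and numpy 2.4.6 were used.

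The members and gene lists were chosen with earlier results of these data known, so counts are described without tests. Values are given for each member with a gene-end peak, and for members with a pattern by group or replicate number. The alternatives tried were equal list lengths, a stricter −log10 q (3 or more), peak midpoints, other windows, exclusion of peaks at ends of other genes, each library left out, and the replicate number as a block.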

Additional observations from a re-analysis of the deposited data

How the results depend on the processing

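The number of members with a peak over body and flanks in all 4 libraries was 4, and became 2 with a −log10 q of at least 3 and 11 with flanks of 50 kb; with 1 library left out it ranged from 4 to 10, the highest value being that without control replicate 1. The number with a gene-end peak in all 4 was 3, fell to 0 with a −log10 q of at least 3, and was 3 with any 1 library left out. Knockdown-only members numbered 0, and 1 with a −log10 q of at least 3 (Tfap2a), with no flank (Slc6a9) or with flanks of 50 kb (Onecut1); with 1 library left out they ranged from 0 to 6. Control-only members numbered 0, and 1 with equal list lengths or without knockdown replicate 2 (Pax6 in either case) and 2 without control replicate 1 (Grm6 and Sox9). Members held only by both replicate 2 libraries numbered 1, and 0 with a −log10 q of at least 3, with equal list lengths or with no flank, 4 with flanks of 50 kb, and 2 to 7 with 1 library left out. Where a library was left out, its group and its replicate number were each represented by their remaining library alone. The difference between group means was 4.5 members, −0.5 with equal list lengths, and 0.5 to 8.5 with 1 library left out. With the replicate number as a block it was 4.5, from 5 for number 1 and 4 for number 2. Equal list lengths leave the longer lists with fewer peaks by construction; the cause of the other changes was not tested. Of 52 alternative values, 33 were classed as the same as those reported, 18 as moved and 1 changed sign. For the difference between group means, a shift below 4.95 members, the smaller of the group SDs, was classed as the same. Under that wide limit 0.5 and 8.5 count as the same as 4.5, so the tally does not show that the difference was stable. Without peaks at ends of other genes, 5, 10, 7 and 15 members had a peak (12.5%, 25%, 17.5% and 37.5%, against 23.7%, 39.3%, 39.6% and 47.8% of all genes), and with equal list lengths 17.5%, 22.5%, 22.5% and 15% did, against 35.4%, 39%, 38.7% and 38.4%. Unknown read depth limits every statement on a missing peak.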
